A study of Drosophila melanogaster with 185 samples.

Results

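Whole Drosophila melanogaster, the fruit fly, of the UAS-GFP reporter line were compared with whole flies of 7 GAL4 driver lines, to find which genes varied by genotype in the entire animal. Members were chosen by label alone. The reporter side had 3 libraries and the driver side 24, so that 27 of the 101 libraries in the series were used. The study itself addressed neurons of the mushroom body after training for long-term memory, and it collected whole flies of each genotype to account for background differences. The whole-fly labels give a control training state for both sides.

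The reporter flies carried the UAS-GFP background and no driver, and the labels do not describe their own cross. The driver flies came from mothers of a UAS-eGFP;UAS-eGFP;+ line mated with males of a GAL4 line, so that they carried GFP transgenes as well. The lines were DAL-GAL4, NP1131-GAL4, R71D08-GAL4, CG0239-GAL4 (titled V3), c739-GAL4, G386-GAL4 and R27G01-GAL4. DAL, NP1131 and G386 had 4 libraries each, and c739, R71D08, V3 and R27G01 had 3 each. All lines shared the w1118 background and were raised at 25 degrees with a light and dark cycle. The labels give neither the sex, the age, nor the number of flies in a library. The NP1131 and G386 descriptions number their libraries 1A, 1B, 2A and 2B, which may mark a shared origin, and p-values therefore measure the spread between libraries. Neither a GFP nor a GAL4 gene was among the counted genes, so the transgenes could not be checked.

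In the GAL4 system a yeast transcription factor, expressed in chosen cells, turns on any gene that carries its UAS binding site. Each driver is an insertion in the genome of its own line, and the progeny inherit part of their genome from that line. RNA of an entire fly is a mixture dominated by gut, fat body, ovary, muscle and eye, so neurons labelled by a driver contribute little to it.

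The reporter libraries stood apart from the driver libraries in several technical measures. Total counts were 9789418 to 16213198 in reporter libraries and 931967 to 8724461 in driver libraries, and 11177 to 11379 genes were detected in reporter libraries, against 7735 to 10481 genes in driver libraries. The 10 genes with most reads held 7.38% to 7.76% of the counts in reporter flies, against 17.5% to 30.2% in driver flies. TMM factors, which scale a library by the bulk of its genes, were 2.20 to 2.35 in reporter libraries and 0.599 to 1.22 in driver libraries. These measures cannot be told apart from genotype. Levels are given below as scaled CPM, in which the library total times its TMM factor takes the place of the total. The means of drivers are means of the 7 genotype means, with the SD over genotypes. Fold changes come from the fit and average the 7 drivers on a log scale, so they differ from a ratio of those means. Means are given ± SD over 3 reporter libraries or 7 driver genotypes unless another n is stated. A signed value in brackets before an adjusted p is the log2 fold change ± SE of edgeR's quasi-likelihood fit.

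Markers of female tissue were abundant in all 27 libraries. Yp1, Yp2 and Yp3 encode yolk proteins; Yp1 had 3266, 3193 and 3790 scaled CPM in reporter libraries and 4246 to 65950 in driver libraries. Of the accessory gland genes, Acp70A and Mst57Da had no count in any library, whereas Acp36DE had 0 to 0.464 scaled CPM in reporter flies and 0 to 5.05 in driver flies, and Acp26Aa had 0.041 to 0.186 in reporter flies and 0 to 0.231 in driver flies. Summed over the list of 52 seminal fluid genes, levels were 105.9 to 165.0 scaled CPM in reporter flies and 74.0 to 646.2 in driver flies. The male dosage compensation RNA roX1 stayed at 0.53 to 0.79 scaled CPM in reporter flies and 0 to 15.7 in driver flies. The eye pigment transporter gene w, which is mutant in w1118 flies and whose mini version marks many transgenes, had 5.03, 4.87 and 4.07 scaled CPM in reporter libraries, against 0.186 to 39.7 in driver libraries (median 3.80). These ranges overlapped, and w was not called between reporter and drivers (adjusted p = 0.91, edgeR with Benjamini-Hochberg adjustment).

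Of 9521 genes tested, 1094 were higher (11.5%) and 1236 lower (13%) in reporter flies than in the average driver at an adjusted p of 0.05 (edgeR quasi-likelihood test, Benjamini-Hochberg adjustment). The change was at least 2-fold for 716 of the higher and 638 of the lower genes. All 3 reporter libraries lay above all 24 driver libraries for 238 of the higher genes, and below them for 489 of the lower ones, where 2.59% and 5.17% of all tested genes did so. Counts of calls rested on the number of reporter libraries. Without reporter library 1, 2 or 3 the higher genes numbered 526, 440 and 558, and the lower genes 871, 811 and 985.

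The split between higher and lower genes depended on the scaling. With TMM the median log2 fold change over all tested genes was 0.09. With library totals alone it was 1.42, and 7853 genes were called higher and 225 lower. A cyclic loess fit, which removes any trend of the fold change with abundance, gave 1102 higher and 860 lower. Of the genes called with TMM, 787 higher ones and 170 lower ones kept their direction and their call under TMM, DESeq2 size factors, library totals and cyclic loess. That was 71.9% of the higher genes and 13.8% of the lower ones, and 92 of these 170 lower genes were histone genes. The gap between these shares does not show that higher calls were firmer. Library totals moved the fold changes upward, and alone kept 100% of the higher calls and 18.2% of the lower ones. Cyclic loess alone kept 72.9% and 51.3%.

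The direction followed abundance, taken as the mean of the 8 genotype means. Of those means 7 are driver means that also enter the fold change, so part of the trend is built in. The size of that part was not tested. Among the 1905 least abundant tested genes (0.18 to 4.07 scaled CPM on average) 14.9% were higher and 2.05% lower in reporter flies, with a median log2 fold change of 0.72. Among the 1904 most abundant (above 51.9 scaled CPM) 2.78% were higher and 44.3% lower, with a median of -0.57. Chromosome arms 2L, 2R, 3L, 3R and X ranged from 10.8% to 12.3% in the higher share, and from 11.04% on 3R to 16.1% on 2L in the lower share. The arm counts include the 97 histone genes called lower, most of which lie in a tandem array on a single arm. The share on 2L was not counted without that family. On chromosome 4, with 81 tested genes, 7.41% were higher and 7.41% lower.

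**Figure D1:**
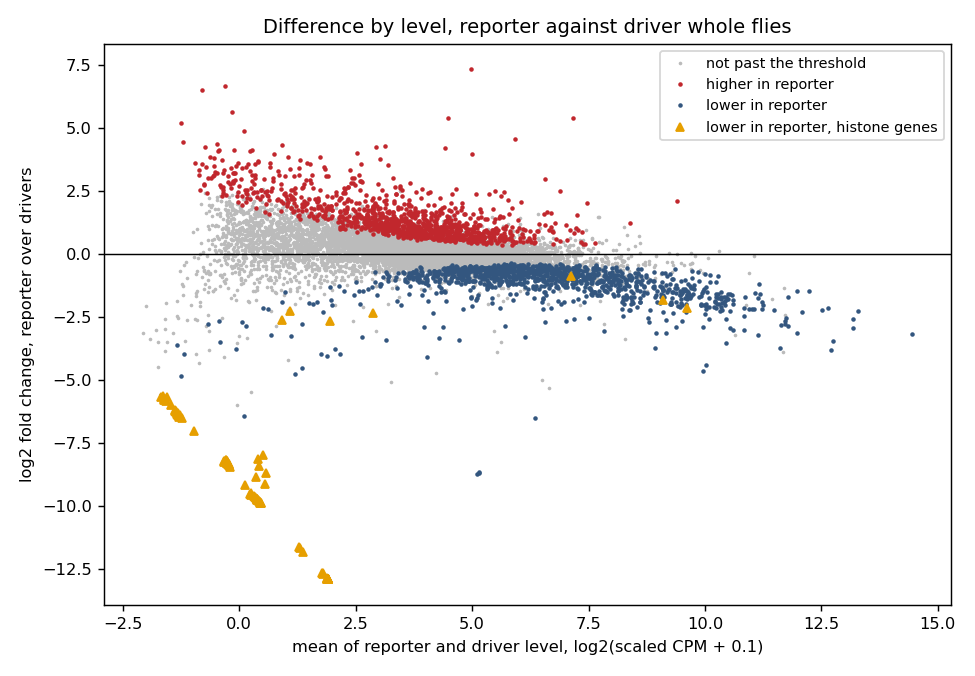
Fitted log2 fold change of reporter over driver flies against the mean of both levels for every tested gene, with points for genes higher, lower or not past an adjusted p of 0.05 and triangles for histone genes called lower. The higher genes lie mostly at low levels and the lower genes at high levels; fitted values of histone genes with no reporter count depend on the prior count and are no measure of size.

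Some of the genes with the largest increase were high in all 3 reporter libraries. Obp99b, an odorant-binding protein gene, had 297.5, 321.3 and 275.6 scaled CPM in reporter libraries, against a lowest value of 0, a median of 1.19 and a highest of 19.9 in the 24 driver libraries. No driver library reached the reporter range. The log2 fold change was 7.33 ± 0.48 (SE, adjusted p = 3.9e-10, edgeR with Benjamini-Hochberg adjustment), it was called under all alternatives tried, and it was 7.94 without R71D08 library 3. Among drivers G386 had the highest mean, at 10.2 ± 4.36 scaled CPM (SD, n = 4).

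Lsp2 encodes a storage protein of the fat body and haemolymph. It had 254.2, 295.1 and 257.5 scaled CPM in reporter libraries and 0 to 1793 in driver libraries (median 2.85). The overlap came from G386, where libraries 1 to 4 spanned 49.5 to 1793, while the other 6 drivers averaged 1.62 to 9.69. The log2 fold change was 5.40 ± 0.76 (SE, adjusted p = 2.3e-05, edgeR), with 6.41 without V3 library 1. It was 1.57 and no longer called when every driver library counted alike. G386 flies themselves were higher than the mean of the other 7 genotypes (adjusted p = 1.3e-05, edgeR).

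Further genes were above the driver range in each reporter library. CG13091 had 43.0, 82.9 and 52.3 scaled CPM in reporter flies, against 0 to 31.98 in driver flies (log2 fold change 4.21 ± 0.50, adjusted p = 1.0e-06, edgeR). Mal-B1, a maltase gene, had 15.1, 17.8 and 19.8 in reporter flies, against 0 to 11.1 in driver flies (3.59 ± 0.69, adjusted p = 4.1e-04). The astrocyte gene alrm had 12.6, 12.4 and 15.7 in reporter flies, against 0 to 10.1 in driver flies (3.34 ± 0.59, adjusted p = 1.5e-04). All 3 genes held their call without any single library and under each scaling. Without R71D08 library 3 the value for Mal-B1 was 4.37, and without R27G01 library 4 that for alrm was 3.94. Obp56g, also an odorant-binding protein gene, stood at 13.2 ± 1.12 scaled CPM in reporter flies (SD, n = 3) and 2.20 ± 1.36 in driver flies (SD, n = 7). Its ranges did not overlap either (log2 fold change 3.02 ± 0.69, adjusted p = 0.0023, edgeR), and the value was 3.94 without V3 library 4.

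**Figure D2:**
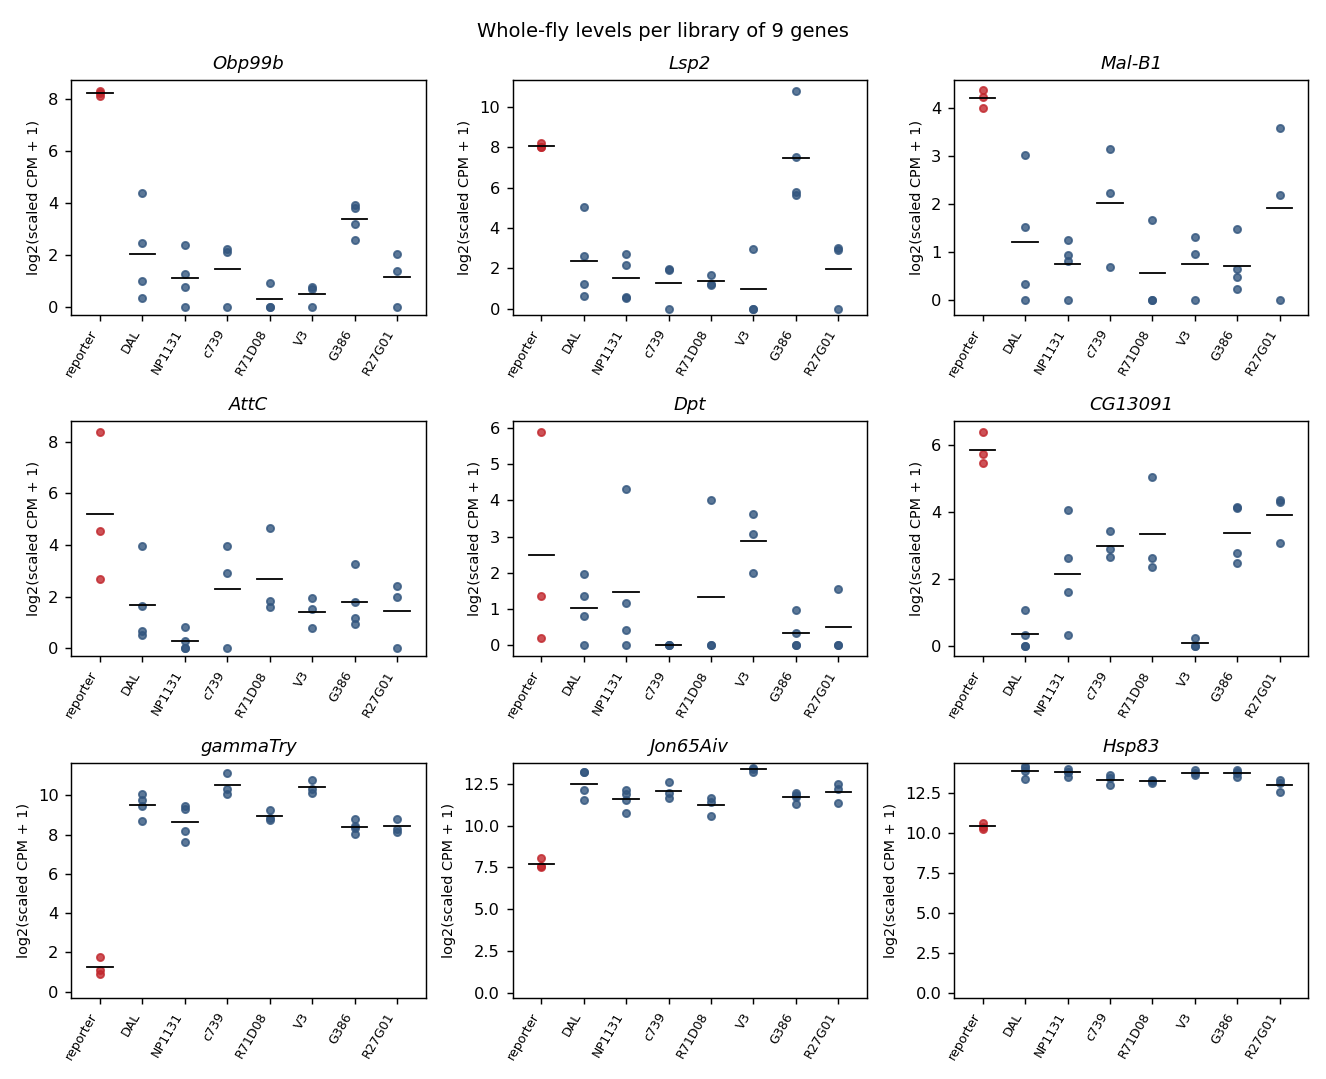
Level of 9 genes in each library as log2(scaled CPM + 1), with reporter flies at the left of every panel and the 7 drivers after them; points are libraries and bars their mean. Obp99b, Mal-B1 and CG13091 lie above all driver libraries, AttC and Dpt are high in a single reporter library, and gammaTry, Jon65Aiv and Hsp83 lie below all driver libraries.

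Among the reporter libraries, immune genes were highest in library 2. Antimicrobial peptides are secreted by the fat body on infection through the Toll and Imd pathways. Of 13 tested members, 8 were higher and 0 lower in reporter flies, with a median log2 fold change of 3.13 beside 0.09 for all genes. The summed level of the list did not differ in this way. It was 235.7, 1532 and 247.5 scaled CPM in reporter libraries 1, 2 and 3, against 228.8 to 1914 in driver libraries. The means of these sums were 671.8 in reporter flies and 670.1 in driver flies. AttC, an attacin gene, had 5.39, 331.1 and 22.1 scaled CPM in reporter libraries 1, 2 and 3, against 0 to 24.2 in driver libraries (median 1.94). Reporter library 2 alone was outside the driver range. The log2 fold change was 5.40 ± 0.76 (SE, adjusted p = 2.1e-05, edgeR) and 2.27 without that library (adjusted p = 0.11).

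The same library held the high values of Mtk, encoding metchnikowin (1.78, 96.9 and 4.13 scaled CPM in reporter flies, 0 to 8.72 in driver flies), and of the diptericin gene Dpt (0.162, 58.4 and 1.58 in reporter flies, 0 to 18.7 in driver flies). It was alike for DptB (0.122, 52.6 and 0.736 in reporter flies, 0 to 11.3 in driver flies). Without reporter library 2 the log2 fold changes were 0.76 for Mtk, -0.24 for Dpt and -1.31 for DptB, none called, where the full fit gave 4.29, 4.26 and 4.01. Driver libraries moved them too: Mtk was at 5.36 without c739 library 4, and Dpt at 5.40 without R71D08 library 1 and 5.07 without R27G01 library 4. Over the list 2 of 13 were higher without reporter library 2, with a median of -0.24, and 2 of 13 were higher with cyclic loess. Only dro4, a drosomycin-like gene, was above every driver library in all 3 reporter libraries among the list's named members, at 20.4, 36.9 and 20.3 in reporter flies, against 0 to 8.79 scaled CPM in driver flies (log2 fold change 3.55 ± 0.50, adjusted p = 6.9e-06, edgeR).

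The wider list of immune-induced genes and Turandot stress peptides counted 15 higher and 4 lower of 38 tested. Without reporter library 2 it counted 2 higher and 4 lower. IM23, an immune-induced peptide, had 22.6, 192.6 and 50.7 scaled CPM in reporter flies, against 0 to 111.8 in driver flies (log2 fold change 3.99 ± 0.65, adjusted p = 1.0e-04, edgeR), and 2.69 without that library. TepII encodes a thioester protein that binds microbes, and it had 25.3, 82.2 and 44.5 in reporter flies, against 1.41 to 33.7 in driver flies (2.36 ± 0.37, adjusted p = 4.2e-05). Reporter library 2 was the highest of the 3 in each of these genes. CG4757 went the same way, with 18.9, 622.5 and 36.2 in reporter flies, against 0 to 118.9 scaled CPM in driver flies, and so did the serpin gene Spn88Eb, with 8.03, 50.5 and 11.4 in reporter flies, against 0 to 12.6 in driver flies. Their log2 fold changes were 4.58 and 3.77 with all libraries, and 1.52 (not called) and 2.49 (called) without reporter library 2.

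Detoxification lists held more higher than lower genes in reporter flies. Cytochromes P450 oxidise foreign compounds and hormones, and 21 of 69 tested were higher and 2 lower, with a median log2 fold change of 0.99 beside 0.09 for all genes. Cyp4ac1 had 22.7, 20.5 and 25.3 scaled CPM in reporter libraries, against 0 to 11.4 in driver libraries (median 5.04). Cyp12e1 had 14.3, 15.0 and 14.2 in reporter flies, against 0 to 8.55 in driver flies. Neither overlapped, and the log2 fold changes were 2.29 ± 0.32 and 2.01 ± 0.36 (SE, adjusted p = 7.1e-06 and 1.6e-04, edgeR). Cyp9b2 averaged 97.5 ± 2.46 in reporter flies (SD, n = 3) and 34.4 ± 28.6 in driver flies (SD, n = 7), with V3 at 95.3 ± 66.2 (SD, n = 3), and its call was lost when every driver library counted alike (log2 fold change 1.53). Cyp4g1, the enzyme of oenocytes that makes cuticular hydrocarbons, went the other way, with 2449, 3122 and 3577 in reporter flies, against 5235 to 80230 scaled CPM in driver flies. Its log2 fold change was -2.93 ± 0.47 (adjusted p = 5.9e-05, edgeR) with TMM but -0.02 with cyclic loess.

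Glutathione and UDP transferases, which conjugate foreign compounds, counted 12 higher and 1 lower of 29 (median log2 fold change 0.99). GstD2 had 16.7, 6.68 and 26.1 scaled CPM in reporter flies, against 0 to 6.61 in driver flies, and GstE9 had 53.7, 48.7 and 42.3 in reporter flies, against 4.53 to 38.2 in driver flies. In both genes every reporter library exceeded every driver library (log2 fold changes 3.14 ± 0.53 and 1.60 ± 0.27, adjusted p = 9.0e-05 and 7.2e-05, edgeR). Ugt86Dd averaged 23.7 ± 8.44 in reporter flies (SD, n = 3) and 5.17 ± 3.18 in driver flies (SD, n = 7), with 1 driver library above the lowest reporter library and a log2 fold change of 2.55 (3.43 without R27G01 library 4). GstD1 was the lower member, at 603.9 ± 11.5 in reporter flies, against 2460 ± 543 scaled CPM in driver flies, a log2 fold change of -1.99 that cyclic loess reduced to -0.18 and no call. With 1 reporter library left out, 9 or 10 transferase genes and 10 to 12 P450 genes were higher. Leaving out DAL library 3 and c739 library 1, which stood apart in muscle genes, gave 33 of 69 P450 genes higher. Over all tested genes 1843 of 9738 were then higher.

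Odorant-binding proteins, small carriers of the haemolymph and sensory fluid, counted 5 higher and 0 lower of 20 tested, and 3, 2 and 4 higher without reporter library 1, 2 or 3. The count was 9 of 21 without DAL library 3 and c739 library 1, where 1843 of 9738 tested genes were higher. Beside Obp99b and Obp56g, Obp18a had 15.97, 21.2 and 12.2 scaled CPM in reporter flies, against 1.25 to 17.3 in driver flies, and Obp19b had 6.65, 6.82 and 4.02 in reporter flies, against 0 to 8.34 in driver flies. Both overlapped the drivers, and both lost their call without reporter library 2. Obp19b lost it without reporter library 1 as well, and had a log2 fold change of 2.15, or 2.97 without c739 library 4. The chemoreceptor genes that bind odours and tastants were mostly too low to test (9 of 186), with 2 higher, and 1 without any of the reporter libraries. Ir31a averaged 1.00 ± 0.07 scaled CPM in reporter flies (SD, n = 3) and 0.07 ± 0.09 in driver flies (SD, n = 7). The low-count filter acts on counts before TMM, and at these levels Ir31a could pass it only through the reporter libraries. Its call is therefore no result apart from the filter. Without the filter 8 of 122 chemoreceptor genes were higher, where 1363 of 13173 tested genes were.

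Fat body and haemolymph genes counted 4 higher and 1 lower of 13, and in whole animals fewer cells of a type and less RNA per cell cannot be told apart. The iron carrier gene Tsf1 had 152.7, 338.1 and 334.2 scaled CPM in reporter libraries, against 10.9 to 121.5 in driver libraries (log2 fold change 2.50 ± 0.34, adjusted p = 6.2e-06, edgeR), without overlap. Lsd-1 and Lsd-2 encode the perilipins of lipid droplets and differed in sign. Lsd-1 averaged 172.2 ± 8.81 in reporter flies and 62.2 ± 27.1 in driver flies (1.61 ± 0.33, adjusted p = 7.7e-04), whereas Lsd-2 averaged 178.3 ± 7.56 in reporter flies and 562.1 ± 74.0 in driver flies (-1.65 ± 0.25, adjusted p = 1.9e-05). Lsd-2 was at -0.51 and not called with cyclic loess.

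Blood cell genes counted 3 higher and 0 lower of 8. Hml, encoding the haemocyte clotting protein hemolectin, had 19.7, 25.3 and 24.8 scaled CPM in reporter flies, against 1.79 to 14.6 in driver flies (log2 fold change 1.65 ± 0.28, adjusted p = 8.0e-05, edgeR). The phagocytic receptor gene eater averaged 5.23 ± 0.77 in reporter flies, against 1.11 ± 0.73 in driver flies (2.61 ± 0.71, adjusted p = 0.0084), and its call was lost without reporter library 3. Insulin and fasting genes counted 4 higher and 0 lower of 17, but 1 of 17 when any 1 reporter library was left out. That gene list includes the lipase gene Lip4, at 25.1, 24.4 and 17.7 in reporter flies, against 0 to 19.5 scaled CPM in driver flies (2.00 ± 0.34, adjusted p = 9.5e-05). A single driver library lay above reporter library 3. The insulin-producing cell gene Ilp5 averaged 1.11 ± 0.36 in reporter flies, against 0.41 ± 0.44 scaled CPM in driver flies and lost its call without any 1 reporter library. Its log2 fold change was 2.42, or 3.14 without c739 library 1.

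The share of higher pan-neuronal genes was near that over all genes. Of 18 pan-neuronal genes 2 were higher, and of 8 glial genes 2 were higher, alrm and the blood-brain barrier receptor gene moody. The call for moody was lost without any 1 reporter library. Without DAL library 3 and c739 library 1, 6 of 18 pan-neuronal and 5 of 8 glial genes were higher and 1 of each was lower, where 1843 of 9738 genes were higher in all. The active zone gene brp had 21.9, 18.6 and 8.62 scaled CPM in reporter flies, against 0 to 21.7 in driver flies (log2 fold change 1.97 ± 0.40, adjusted p = 5.9e-04, edgeR). The neuronal RNA-binding gene elav averaged 11.2 ± 0.44 in reporter flies, against 10.1 ± 3.38 in driver flies and was not called (adjusted p = 0.67). The clock gene cwo, a transcriptional repressor of the circadian loop, was the single higher gene of 9, at 41.2 ± 5.40 in reporter flies, against 20.9 ± 6.61 in driver flies (1.04 ± 0.17, adjusted p = 8.1e-05). Of 18 eye pigment genes 3 were higher and 1 lower. The shares of higher clock and eye pigment genes were near the 11.5% over all tested genes, of which 13% were lower. The eye pigment list was led by Hn, encoding phenylalanine hydroxylase. Hn had 68.9, 81.5 and 78.6 in reporter flies, against 4.12 to 57.7 scaled CPM in driver flies and no overlap (1.78 ± 0.30, adjusted p = 8.3e-05, edgeR).

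On the lower side the histone genes led, taken here as every gene whose symbol begins with His. Most are replication-dependent genes repeated in a tandem array, whose messages normally lack a long poly(A) tail. Of 99 tested histone genes 97 were lower and 0 higher in reporter flies with TMM, and 92 lower and 2 higher with library totals. Of these genes 84 had no count in any reporter library. The reporter floor of 3 counts over its 3 libraries was 0.036 scaled CPM. The 20 copies of His2A without a reporter count were at least 3326-fold to 3968-fold lower in reporter flies than in driver flies, where they averaged 118.4 to 141.3 scaled CPM. The 17 copies of His1 were at least 398-fold lower, the 21 of His2B at least 177-fold and the 19 of His4 at least 24.2-fold lower. The remaining 7 of the 84, with symbols beginning His-Psi, were at least 70.3-fold lower. The 15 genes named by size on this side were all copies of His2A, among them His2A:CG33850. Summed over all histone genes, reporter libraries held 694.5 to 896.1 scaled CPM and driver libraries 2259 to 10670. The reporter sum came from members outside those 84. Copies are near-identical and the rule for reads they share is not stated, so single copies are uncertain and a difference in that rule cannot be told apart from genotype.

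Other near-identical copies were low in reporter flies too. Outside the histones, 15 genes were picked by the same rule after the values were seen. The neighbouring trypsin genes gammaTry, deltaTry and CG30031 had 0.851 to 2.41 scaled CPM in reporter libraries, against 189.9 to 2260 in driver libraries. CG30025 had 10.0, 10.1 and 3.39 in reporter flies, against 245.4 to 2189 in driver flies. No library overlapped, and log2 fold changes ran from -8.76 ± 0.57 for gammaTry to -6.53 ± 0.51 for CG30025 (adjusted p = 1.3e-10 and 1.9e-09, edgeR).

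The peptidoglycan amidase genes PGRP-SC1a and PGRP-SC1b, also a near-identical pair, averaged 0.619 ± 0.073 and 0.841 ± 0.048 scaled CPM in reporter flies, against 18.7 ± 13.6 and 18.2 ± 10.8 in driver flies. G386 overlapped the reporter, at 0.351 ± 0.250 for PGRP-SC1a and 0.594 ± 0.259 for PGRP-SC1b (SD, n = 4). The chaperone gene copies Hsp70Ba, Hsp70Bb and Hsp70Bbb averaged 0.554, 1.66 and 0.461 in reporter flies and 17.3, 45.5 and 8.18 in driver flies. NP1131 overlapped the reporter in each of the 3, with a mean of 0.798 for Hsp70Ba. Genes without a stated copy were among the 15 as well. CR43699 had 0.324, 0.511 and 0.315 in reporter flies, against 6.46 to 19.96 scaled CPM in driver flies, and CR18854 had 3.57, 3.95 and 3.23 in reporter flies, against 10.5 to 187.0 in driver flies. CG11892 averaged 0.453 ± 0.166 in reporter flies, against 11.7 ± 4.17 in driver flies, and these genes were lower under every scaling. CG7298 had 0.122, 1.49 and 0.236 in reporter flies, against 0 to 264.7 in driver flies, with its highest values in V3, and its log2 fold change was -3.98, or -5.54 without reporter library 2. CG13044 had 0 or 1 count per reporter library and lost its call without any 1 of them; its log2 fold change was -6.45, or -5.44 without c739 library 1.

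Digestive enzymes were lower beyond those copies. Secreted trypsins, Jonah proteases, amylases and lysozymes of the gut counted 5 higher and 27 lower of 52 with TMM, and 7 higher and 20 lower with cyclic loess. With library totals 21 were higher and 16 lower, where 7853 and 225 of the 9521 tested genes were. The Jonah protease gene Jon65Aiv had 190.9, 262.0 and 186.0 scaled CPM in reporter libraries, against 1507 to 11440 in driver libraries (median 3906), and its neighbour Jon65Aiii had 168.4, 231.4 and 162.4 in reporter flies, against 1478 to 12710 in driver flies. Neither overlapped, and both were lower under every scaling (log2 fold changes -4.41 ± 0.43 and -4.63 ± 0.46, adjusted p = 4.5e-08 and 7.3e-08, edgeR). CG12374 had 1939, 1715 and 1500 in reporter flies, against 7889 to 72500 in driver flies (-3.80 ± 0.45, adjusted p = 6.3e-07). The trypsin gene alphaTry fell to 1218 ± 130 in reporter flies, against 10170 ± 6043 in driver flies (-2.85 ± 0.38, adjusted p = 3.8e-06), though with cyclic loess the value was -0.45 and not called. The list differed among drivers too, with 39 of 52 called there, where 1795 of the 9521 tested genes were. Among the 1904 most abundant tested genes 39.0% were called among drivers.

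Abundant housekeeping genes were lower with TMM, and most of those calls depended on the scaling. Of 81 tested cytosolic ribosomal protein genes 71 were lower and 1 higher with TMM (median log2 fold change -1.59), 30 lower and 14 higher with library totals (median -0.26), and 14 lower and 13 higher with cyclic loess (median -0.03). RpS3A had 2856, 2752 and 2468 scaled CPM in reporter flies, against 8829 to 18060 in driver flies (-2.21 ± 0.19, adjusted p = 6.9e-09, edgeR), and 0.36 with cyclic loess. RpL28 and RpS9 were lower under every scaling, at -2.36 ± 0.21 and -2.13 ± 0.19 with TMM. Ef1alpha48D, the translation elongation factor gene with the most reads, held 1.45%, 1.68% and 1.90% of the counts in reporter libraries. Its scaled CPM were 6305, 7623 and 8105 in reporter flies, against 36510 to 95190 in driver flies (-3.17 ± 0.19, adjusted p = 4.7e-11), and its cyclic loess value was 0.19. Mitochondrial ribosomal protein genes, less abundant, counted 7 higher and 5 lower of 71 with TMM. With library totals 71 were higher, where 7853 of the 9521 tested genes were. When any 1 reporter library was left out, 1 or 2 were higher and 1 was lower. There were 14 higher and 6 lower without DAL library 3 and c739 library 1, where 1843 and 1526 of 9738 tested genes were.

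The heat shock list counted 0 higher and 7 lower of 15 with TMM, and 0 and 4 with cyclic loess. With library totals 4 were higher and 5 lower, where 7853 and 225 of the 9521 tested genes were. Hsp83, the fly Hsp90, had 1291, 1190 and 1572 scaled CPM in reporter libraries, against 5859 to 18370 in driver libraries, without overlap (log2 fold change -3.12 ± 0.22, adjusted p = 2.3e-10, edgeR). With cyclic loess it was -0.61 and not called. The tubulin gene alphaTub84B fell to 466.5, 414.9 and 465.2 in reporter libraries, against 1441 to 3492 in driver libraries (-2.37 ± 0.17, adjusted p = 2.3e-10), and was lower under every scaling.

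**Figure D3:**
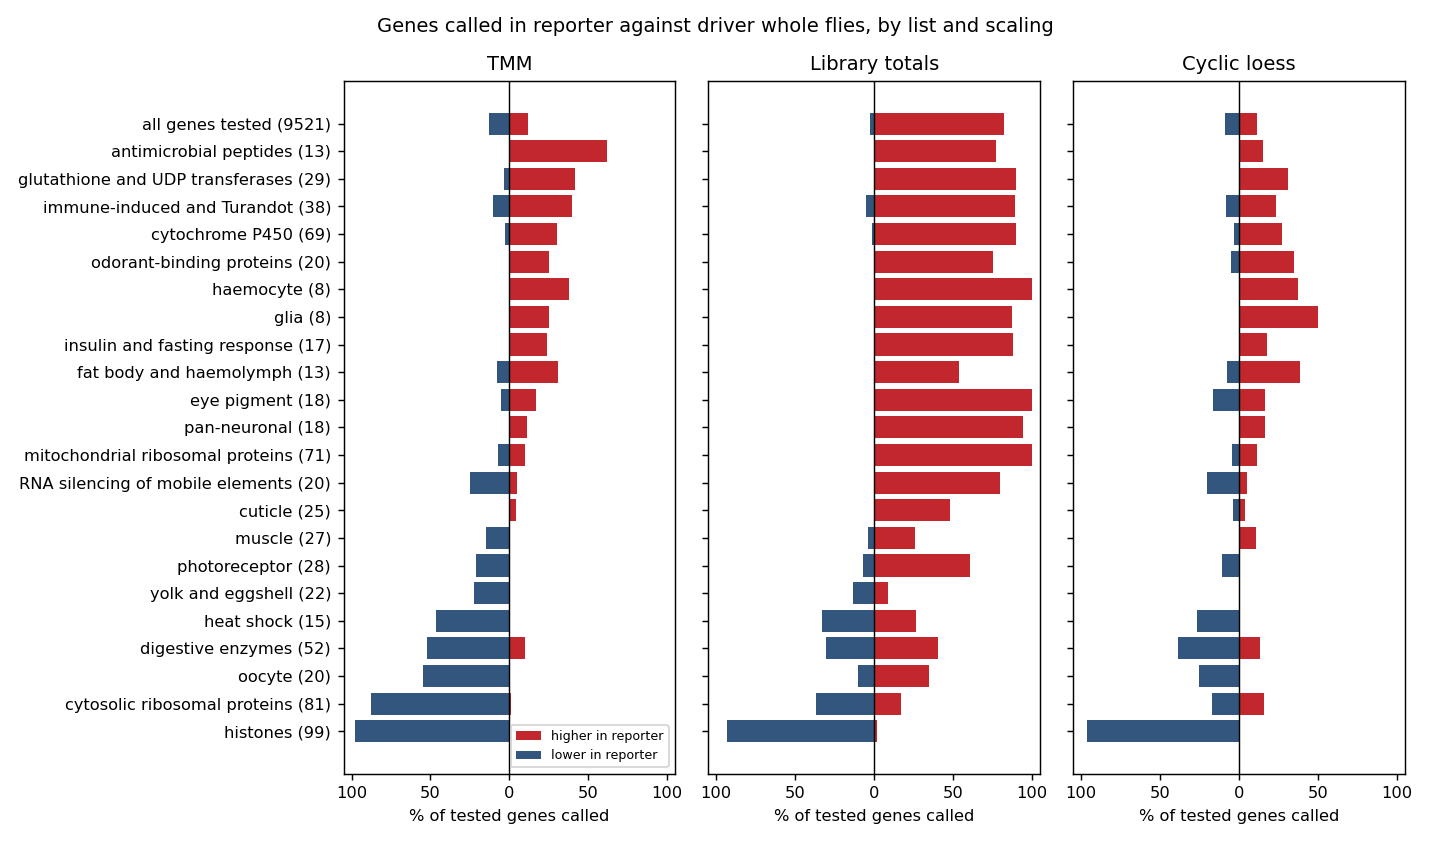
Share of tested members called higher (right) or lower (left) in reporter flies for each gene list, under TMM, library totals and cyclic loess; numbers in brackets are the members tested with TMM. Histones are lower in all panels. P450, transferase and immune genes hold more higher than lower calls in all, but with library totals so do all tested genes (7853 of 9521 higher). Antimicrobial peptides count 10 of 13 higher there, and 2 of 13 with cyclic loess, where 1102 of 9521 genes are higher. Ribosomal protein, oocyte and photoreceptor genes change with the scaling.

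Some ovary genes were lower with TMM as well. Of 22 yolk and eggshell genes 5 were lower and 0 higher with TMM, 3 lower and 2 higher with library totals, and none was called with cyclic loess. Yp1 had a log2 fold change of -2.60 ± 0.33 (adjusted p = 1.5e-06, edgeR) with TMM and 0.25 with cyclic loess, Yp2 -2.14 ± 0.32 and 0.45, and Yp3 -1.69 ± 0.30 and 0.57. The vitelline membrane gene Vm34Ca had 783.8, 311.7 and 332.8 scaled CPM in reporter flies, against 299.0 to 12800 in driver flies, and overlapped. Its log2 fold change was -2.93, or -3.52 without reporter library 1, and it was not called with cyclic loess. Maternal genes of the oocyte counted 11 lower and 0 higher of 20 with TMM, and 5 and 0 with cyclic loess. With library totals 2 were lower and 7 higher, where 225 and 7853 of the 9521 tested genes were. Without reporter library 1, 2 or 3, 7, 6 and 8 were lower with TMM. The posterior determinant gene osk had 448.5, 482.3 and 528.8 in reporter flies, against 857.8 to 4814 in driver flies (-2.03 ± 0.27, adjusted p = 2.7e-06), and -0.31 without a call with cyclic loess. The localisation factor gene exu averaged 227.6 ± 38.9 in reporter flies, against 1433 ± 266 in driver flies (-2.63 ± 0.53, adjusted p = 7.1e-04), with -1.03 and no call with cyclic loess.

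Counts of called eye and muscle genes moved with the scaling and with the libraries used. Of 28 photoreceptor genes 6 were lower and 0 higher with TMM, and 3 and 0 with cyclic loess. With library totals 2 were lower and 17 higher, where 225 and 7853 of the 9521 tested genes were. Without reporter library 1, 2 or 3, 3, 4 and 4 were lower with TMM. Without DAL library 3 and c739 library 1, 8 were lower and 6 higher, where 1526 and 1843 of 9738 tested genes were. ninaE, encoding the main rhodopsin, had 506.6, 764.5 and 621.2 scaled CPM in reporter flies, against 1286 to 8278 in driver flies (log2 fold change -2.28 ± 0.31, adjusted p = 3.9e-06, edgeR), and -0.39 without a call with cyclic loess. Arr2, its arrestin, averaged 246.6 ± 32.6 in reporter flies, against 1124 ± 632.7 in driver flies, and was not called with cyclic loess. Of 27 muscle genes 4 were lower and 0 higher with TMM, where 13% and 11.5% of all tested genes were. With cyclic loess 3 were higher and 0 lower, where 1102 and 860 of the 9521 tested genes were. The share lower with TMM and the share higher with cyclic loess were near those over all genes. Leaving out reporter library 1, 2 or 3 left 0, 1 and 0 lower with TMM. Leaving out DAL library 3 and c739 library 1 gave 8 muscle genes lower and 2 higher, where 1526 and 1843 of 9738 tested genes were. The actin gene Act87E had 158.5, 263.0 and 199.0 in reporter flies, against 335.8 to 12770 in driver flies (-2.91 ± 0.80, adjusted p = 0.010), and the call was lost without reporter library 1 or 3. Mhc, the muscle myosin heavy chain gene, was not called (adjusted p = 0.39), with 120.3 to 183.6 scaled CPM in reporter flies and 27.5 to 11750 in driver flies.

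The remaining lists held few calls with TMM. RNA silencing genes counted 1 higher and 5 lower of 20. With library totals they counted 16 higher and 0 lower, where 7853 of the 9521 tested genes were higher. Cuticle genes counted 1 higher of 25, and 7 of 30 without DAL library 3 and c739 library 1. Testis genes counted 1 higher of 8, sex determination genes 1 lower of 11, hydrocarbon synthesis genes 1 lower of 4 (Cyp4g1), and seminal fluid genes none of 2. With those libraries left out, 2 of 8 testis genes were higher, and 2 of 11 sex determination genes and 2 of 4 hydrocarbon genes were lower. Over all tested genes 1843 of 9738 were then higher and 1526 lower.

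Genotype differences without the reporter were tested among the 7 drivers. The F test over all 8 genotypes called 2998 genes (31.5%) and the F test over the drivers alone 1795 (18.9%), in the same fit. Of the 2330 genes called for the reporter (24.5%), 686 were also called among drivers and 1644 were not. Each driver against the mean of the other 7 genotypes gave 699 genes for G386 (7.34%), 587 for NP1131 (6.17%), 579 for V3 (6.08%), 458 for c739 (4.81%), 362 for R71D08 (3.8%), 361 for DAL (3.79%) and 332 for R27G01 (3.49%). In G386 4.14% of tested genes were higher and 3.2% lower, in NP1131 3.89% and 2.28%, and in V3 5.63% and 0.452%. In c739 4.09% were higher and 0.725% lower, in R71D08 2.34% and 1.46%, in DAL 3.41% and 0.378%, and in R27G01 2.32% and 1.17%. With 1 of its own libraries left out, the lowest counts were 121 for DAL (without library 3), 178 for c739 (library 1), 157 for V3 (library 4), 72 for R27G01 (library 2), 227 for NP1131 (library 3), 120 for R71D08 (library 2) and 315 for G386 (library 4). These contrasts share libraries with one another and with the reporter contrast. Library spread was smallest in the reporter, with a median SD of 0.175 on the log2 scale over genes, and 0.251 to 0.510 within the drivers. Reporter libraries also had larger totals, which lowers counting error. The values of DAL and c739, 0.401 and 0.510, include the pair of libraries described below as standing apart. What these limits contribute was not tested.

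**Figure D4:**
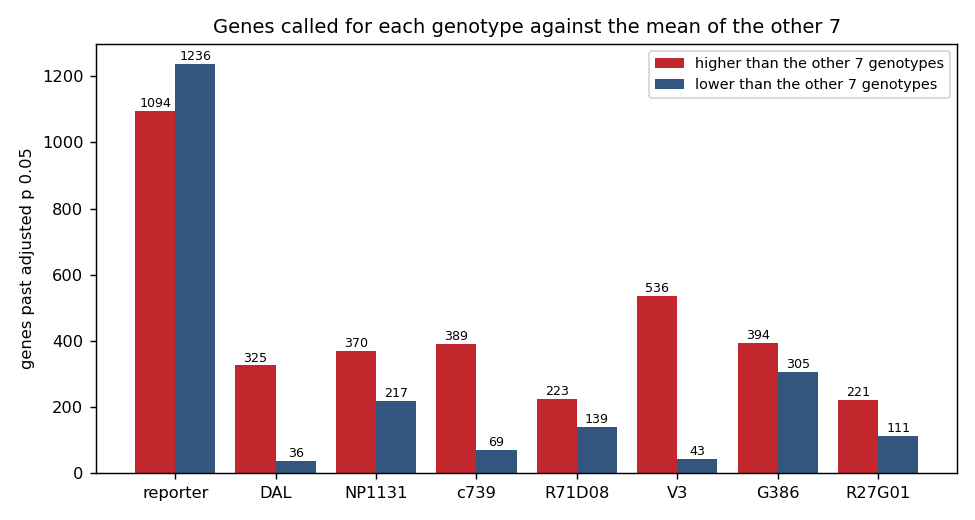
Number of genes past an adjusted p of 0.05 that were higher or lower in each genotype than in the mean of the other 7, with the reporter first. The reporter has 1094 higher and 1236 lower genes, and no driver exceeds 536 higher or 305 lower.

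The genes with the smallest p among drivers included the lysozyme genes LysB, LysC, LysD and LysE, bacteria-digesting enzymes of the midgut that lie side by side. LysC averaged 21.3 ± 7.16 scaled CPM in reporter flies (SD, n = 3). It averaged 1384 ± 522 in V3 (SD, n = 3) and 989.4 ± 470.1 in DAL (SD, n = 4), but 3.44 ± 1.59 in c739 and 4.24 ± 2.12 in R27G01 (SD, n = 3 each). The libraries of V3 and DAL lay above all others, and those of c739 and R27G01 below all others (adjusted p = 1.4e-08 over drivers, edgeR F test with Benjamini-Hochberg adjustment). LysB was also highest in V3 and DAL and lowest in c739 and R27G01 by genotype mean, with 4006 ± 1287 in V3 and 3036 ± 1643 in DAL, against 33.1 ± 12.2 in c739 and 31.4 ± 19.7 in R27G01. The 4 copies are alike in sequence, so counts may be shared between them.

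NP1131 flies lacked most of the RNA of a pair of genes. GstE1, a glutathione transferase gene, had 1.20, 6.71, 4.18 and 4.28 scaled CPM in NP1131 libraries, against 59.3 to 83.0 in reporter libraries and at least 29.5 in every other driver library. CG18446 had 2.01, 4.63, 1.74 and 3.78 in NP1131, against 48.0 to 58.6 in the reporter and at least 34.4 elsewhere. Both were separate from all other libraries, with log2 fold changes of -4.06 ± 0.33 and -4.72 ± 0.36 for NP1131 over the other 7 genotypes (adjusted p = 1.9e-08 and 8.4e-09, edgeR).

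V3 and DAL each had genes above the levels of all other libraries. pug, encoding an enzyme of folate metabolism, had 134.9, 81.7 and 106.6 scaled CPM in V3 libraries, against 10.4 to 37.1 in all other driver libraries and 23.0 to 26.4 in the reporter (log2 fold change of V3 over the other 7 genotypes 2.46 ± 0.18, adjusted p = 9.4e-10, edgeR). CG31148 had 52.0, 62.9 and 66.2 in V3, against at most 23.7 in every other library (4.23 ± 0.30, adjusted p = 9.4e-10). Hsp70Ab, a heat-inducible chaperone copy, had 60.8, 115.1, 357.5 and 99.3 in DAL, against at most 53.4 elsewhere (4.70 ± 0.32, adjusted p = 1.0e-09). It held without DAL library 3 and c739 library 1 (3.90, adjusted p = 2.8e-08). CG34166 was highest in G386, at 205.1 ± 56.1 (SD, n = 4), and lowest in NP1131, at 7.61 ± 3.55 (SD, n = 4), with the reporter at 54.9 ± 12.2 (SD, n = 3) between them.

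**Figure D5:**
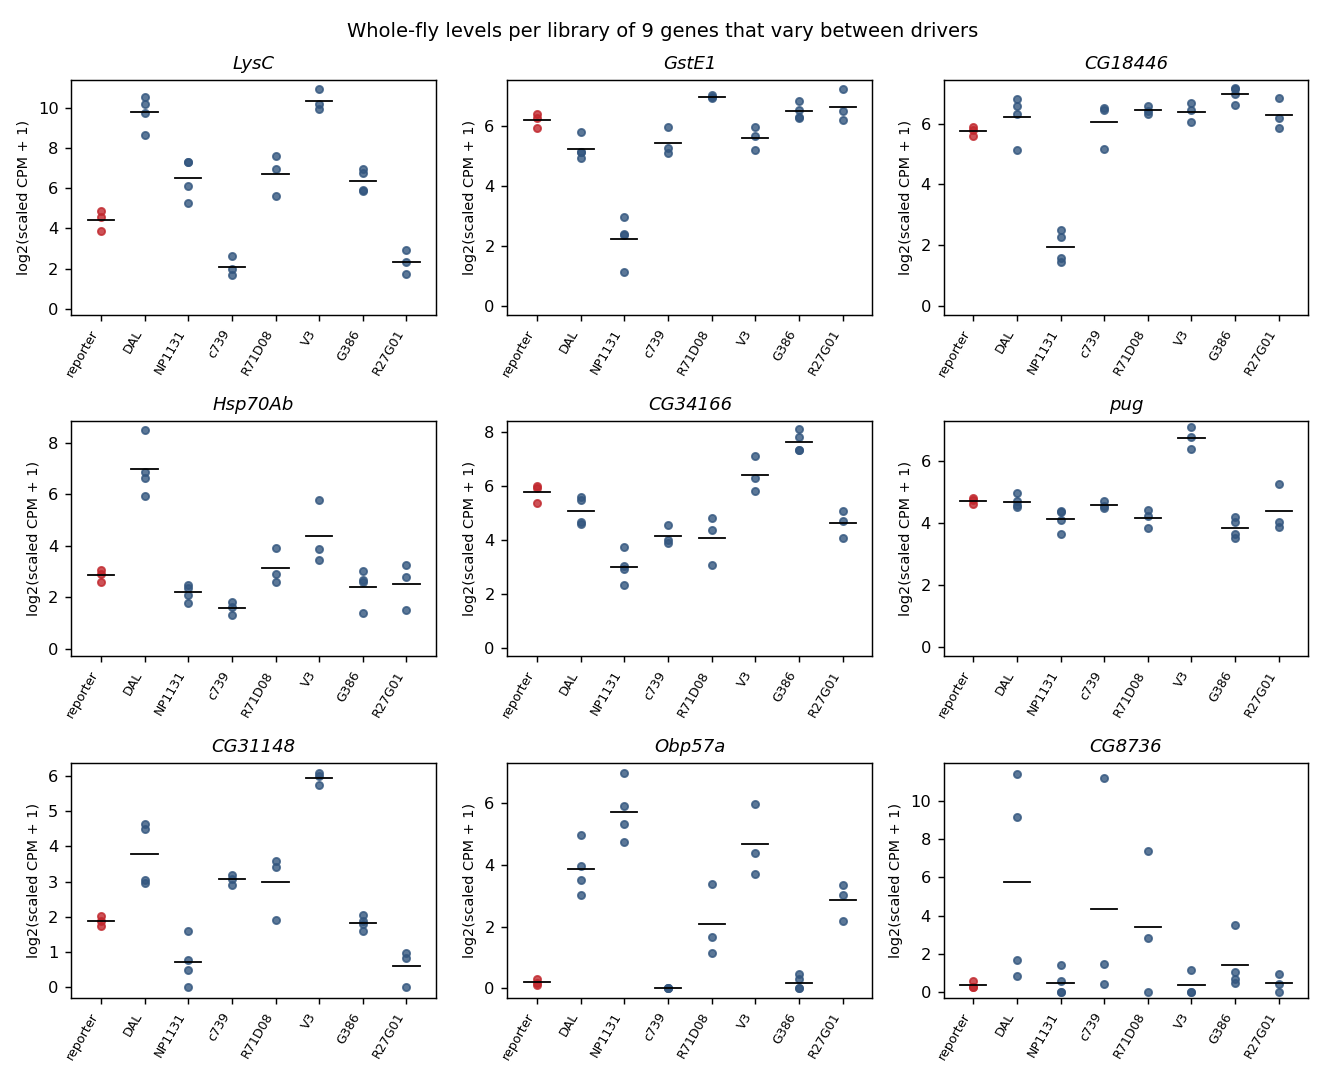
Level of 9 genes that varied among drivers, in each library as log2(scaled CPM + 1), with reporter flies at the left; points are libraries and bars their mean. LysC is high in DAL and V3, GstE1 and CG18446 are low in NP1131, pug and CG31148 are high in V3, and CG8736 is high in some libraries of DAL, c739 and R71D08.

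The largest differences of a single driver included genes near 0 in some other genotypes, for which the fitted fold is no measure of size. Obp57a, an odorant-binding protein gene, had 38.9, 124.7, 59.2 and 25.95 scaled CPM in NP1131, against 0.081 to 0.232 in the reporter and 0 in every c739 library (adjusted p = 5.6e-08 for NP1131, edgeR). V3 overlapped NP1131, at 12.0 to 62.4, and so did DAL, at 7.23 to 30.4. CG17192 was low in NP1131, at 2.09 to 6.30, against 33.5 or more in all other libraries (adjusted p = 8.1e-06). IM23 was low there as well, at 0.290 ± 0.348 (SD, n = 4; adjusted p = 0.024). CG3264 had 20.9, 1.58, 41.1 and 32.9 in G386 and at most 1.01 elsewhere (adjusted p = 7.0e-05). The protease gene Ser12 was present in V3, DAL and R71D08, with means of 10.6, 11.1 and 5.74, and at 0 in the reporter and the other 4 drivers.

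Other leading genes were ChLD3, a chitin-binding protein gene, which averaged 16.5 ± 4.27 scaled CPM in R71D08 (SD, n = 3) and was at 0 in all 4 G386 libraries. CG9676 was low in R71D08, at 0 to 0.368 in its 3 libraries, against 22.1 to 32.3 in the reporter, though other driver libraries reached 0 as well. The histone copy His2B:CG33890 had 15.9, 27.7 and 16.2 in R71D08, the highest of all libraries, and 0 in the reporter. CG12057 had 3.71, 9.89 and 9.10 in R27G01, against 156.7 to 186.4 in the reporter, though NP1131 libraries 1 and 3 were at 3.41 and 27.8. CG13091 was at 0.062 ± 0.107 in V3 (SD, n = 3), where the reporter had at least 43.0. CG13159 in V3 rested on library 4, with 4.27, 0 and 33.95 in its 3 libraries, while c739 library 2 had 58.2.

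A pair of driver libraries stood apart. DAL library 3 and c739 library 1 had 10040 and 11750 scaled CPM of Mhc, against at most 1791 in any other library. Their chi-square over its degrees of freedom was 24.7, the lowest of 318 pairs of libraries of different genotypes. Within its own genotype DAL library 3 gave 155.6 to 322, and c739 library 1 gave 176.7 and 261.5. Both thus resembled each other more than their own lines. Whether their genotype labels are right was not tested. The same libraries led the genes named for DAL, with CG8736 at 0.782, 570.6, 2747 and 2.13 in DAL and at 2367, 0.314 and 1.74 in c739, against 0.184 to 0.464 in the reporter. CG2650 and the cuticle protein gene Cpr97Ea had 161.2 and 122.1 in DAL library 3, 47.45 and 26.5 in DAL library 2, and 144.4 and 100.4 in c739 library 1. The protease-like gene CG17234 had 1074 in c739 library 1 and at most 0.747 in its other libraries. Without DAL library 3 and c739 library 1, CG8736 and CG17234 were no longer called for c739 (adjusted p = 0.93 and 0.80, edgeR), and 6 rather than 24 of 27 muscle genes varied among drivers. Digestive enzymes gave 36 rather than 39 of 52, and all tested genes 2092 of 9738 rather than 1795 of 9521. The reporter contrast then gave 1843 higher and 1526 lower genes.

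Called genes sat beside called genes slightly more often than others did. The 9303 genes compared here left out the histone genes, and so did the runs below. In the gene order of the Release 6 plus ISO1 MT assembly, 26.8% of the genes higher in reporter flies had a tested neighbour that was also higher, against 21.0% of the genes not called higher. The shares were 28.3% and 21.25% for lower genes, and 39.7% and 32.15% for genes called among drivers. On the higher side the longest runs were of 5 genes on 2L, CG13965 to Hf and Cyt-b5-r to mdy, the second with Ugt36Ba and Ugt36Bc. Several other runs were tandem families. The trypsin cluster from thetaTry to deltaTry gave 8 lower neighbours in a row on 2R, and the same cluster gave 9 in a row among drivers. LysB to LysP stood in a run of 7 on 3L and Mal-A1 to Mal-A6 in a run of 6 on 2R among drivers, while Jon65Ai to Jon65Aiv gave 4 lower neighbours on 3L. Among runs of higher genes, GstE7, GstE8, GstE9 and imd were 4 neighbours on 2R.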

How the data were processed

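Read counts per gene were deposited by the authors for every sequencing run, unnormalised. Reads were handled with cutadapt, TopHat2, Bowtie, Bowtie2 and HTSeq on BDGP5, and the study used DESeq2 1.4, per the submitters' processing notes. RNA was amplified with a SMARTer kit, per the labels' protocols. Runs of a library were summed here; runs of 1 library differed no more than counting error allows (chi-square over its degrees of freedom, 0.976 to 1.04). Intervals for floors cover counting error only.

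The 9521 genes of 15682 that passed edgeR's filterByExpr were fitted in edgeR 4.0.16 (R 4.3.3) with TMM and a robust quasi-likelihood model, 1 group per genotype (common coefficient of variation 0.396, residual degrees of freedom 19). The reporter was set against the mean of the 7 driver coefficients, with 2-sided tests and Benjamini-Hochberg adjustment at 0.05. Named genes were the 15 largest changes in each direction with at least 10 scaled CPM on the higher side, up to 4 members per list by smallest p, the 10 smallest p among drivers, and 3 per driver. Some tissue markers and checks of line and sex were named as well. The comparison, gene lists and rules were chosen with earlier results of these data known. Alternatives used limma 3.58.1 and DESeq2 1.42.0. Of the tested genes 98.8% matched the gene table by symbol. The procedure was tested on simulated data.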

Additional observations from a re-analysis of the deposited data

Results flagged for a closer look

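In 21 of 171 groups of 4 libraries 1 library lay far from the other 3. Chance gives about 1 in 20 for values that follow a normal curve. Here list sums were examined beside their own members, and some values lay near 0. The 21 groups therefore cannot be weighed against that share. In DAL flies, library 3 held 288300 scaled CPM of muscle genes, with 10040 of Mhc, 67.4 of Hsp70Ba, 31.8 of Lsp2 and 6.79 of alrm. DAL library 2 had 14.8 of AttC, and DAL library 4 had 11.7 of roX1 where the other 3 had at most 0.187.

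In G386 flies, library 2 was highest for P450 genes (39230 scaled CPM in sum, with Cyp4g1 at 38420), fat body genes (4392, with Lsp2 at 1793) and photoreceptor genes (3050, with ninaE at 2101). G386 library 4 had 0.798 of roX2, which was at 0 in the other 3.

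In NP1131 flies, library 3 had the lowest total, at 2782000 counts. Library 1 was lowest for yolk and eggshell genes (63250 scaled CPM in sum) and for PGRP-SC1b (5.21). Library 2 was highest for CG4757 (118.9), Dpt (18.7) and Obp56g (1.62), and library 4 for CG7298 (47.4). The reporter and the drivers with 3 libraries were not examined in this way.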

How the results depend on the processing

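Of 79 named genes called between reporter and driver flies, 40 kept their direction and call under every alternative and 63 under every one that left out 1 library. Direction reversed with cyclic loess for Ef1alpha48D (0.19), Yp1 (0.25), Yp2 (0.45), Yp3 (0.57) and RpS3A (0.36), and without reporter library 2 for Dpt (-0.24, highest 5.40) and DptB (-1.31, highest 4.59). Leaving out 1 library gave 440 to 1545 higher and 811 to 1324 lower genes. It gave 2282 to 3612 over 8 genotypes, 1401 to 2342 over drivers, 121 to 696 for DAL, 227 to 706 for NP1131, 178 to 899 for c739, 120 to 490 for R71D08, 157 to 672 for V3, 315 to 887 for G386 and 72 to 413 for R27G01. The low ends for DAL, c739, V3 and R27G01 were without DAL library 3, c739 library 1, V3 library 4 and R27G01 library 2. Library totals gave 7853 higher, 225 lower, 7826 over 8 genotypes, 2885 over drivers, 647 for DAL and 1005 for V3. Cyclic loess gave 79 for DAL, 78 for c739 and 91 for R27G01. DESeq2 gave 4690 over 8 genotypes, 3295 over drivers, 938 for NP1131, 799 for c739, 893 for R71D08, 1168 for G386 and 568 for R27G01. With every driver library alike, 494 genes were higher. With NP1131 and G386 summed by description, calls were 1713, 694 among drivers, 215 for DAL, 78 for NP1131, 263 for c739, 211 for R71D08, 73 for G386 and 206 for R27G01, from fewer samples. Histones left out gave 302 for c739 and 210 for R71D08, roX covariates 118 for DAL, 718 for c739 and 218 for R27G01, and the first run alone 201 for R27G01. Without DAL library 3 and c739 library 1, an alternative chosen after seeing the data, 1843 genes were higher, with 216 for DAL, 215 for c739, 599 for R71D08, 1085 for G386 and 550 for R27G01. The cause of these changes was not tested.

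Replicate numbers did not pair the libraries: same-numbered pairs correlated at a median of -0.014 and differently numbered pairs at 0.045. With a replicate block, 1191 genes were called among drivers, 106 for DAL, 87 for c739, 199 for R71D08 and 172 for R27G01, beside 903 higher and 1099 lower in the reporter. The smaller totals of the driver libraries limit the lowest genes.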
